A study of Mus musculus with 6 samples.

Results

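The genes examined here encode the proteasome, the protease complex of the nucleus and cytoplasm that degrades proteins tagged with ubiquitin. Members were the genes whose name in the array files was Psma, Psmb, Psmc, Psmd, Psme, Psmf or Psmg followed by a number, without the immune forms Psmb8, Psmb9 and Psmb10, which were described apart. This rule, which used no measured value, found 45 genes with 57 probes among 24165 named genes and 55681 probes on the array. Of these 45 genes, 42 entered the test, among 14167 genes tested in all. Each of the 42 was well above background on all 6 arrays, so none of them entered through a single genotype. Psmc3ip, whose name starts the same way but which encodes a recombination factor, was not counted as a member.

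Total RNA of the whole pancreas was hybridised to 1-colour Agilent mouse arrays, with 2 arrays for each of 3 genotypes. Spink3-/- mice lack Spink3, an inhibitor of trypsin secreted by acinar cells, the cells that make digestive enzymes. Spink3-/-XKI/+ mice carry the same deletion together with XKI/+, which the labels do not spell out, and Spink3+/+ mice were the wild-type controls. All mice were C57BL/6N at postnatal day 0.5 and no group received a treatment. The design text describes acinar death with autophagy in every acinar cell of Spink3-/- mice and in part of the acinar cells of Spink3-/-XKI/+ mice. The labels do not say that the arrays of a genotype came from separate animals, so each p-value speaks for the scatter of these particular samples alone, and that scatter may be technical.

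The proteasome core is a stack of outer alpha rings and inner beta rings, and 3 of the beta subunits, encoded by Psmb5, Psmb6 and Psmb7, cut the substrate. A regulatory cap binds ubiquitin chains, removes them, and unfolds the substrate with a ring of ATPases, while other activators (the Psme genes) can dock in place of the cap. Subunit genes are widely transcribed in concert, and the transcription factor Nfe2l1 raises many of them when proteasome activity drops, through antioxidant response elements in their promoters. Proteasome and autophagy are the main routes of protein breakdown in the cell.

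RefSeq promoter windows (build GRCm38.p6, 250 bases before to 50 after the gene start) matched 37 of the 45 members, with 40 windows. The motif TGACNNNGC, a form of the antioxidant response element, was searched on both strands and was held by 6 of the 40 member windows (15%), against 12.39% of all 32851 windows. CCAAT, searched likewise, was held by 13 of the 40 member windows (32.5%) and by 37.41% of all windows. The share of member windows with either motif was thus close to that of promoters at large, and a match is a description of letters, not of binding. Psmb5 and Psmb6 are shown because they encode catalytic subunits and hold TGACNNNGC. Psmb7, the other catalytic gene, matched no window and was not searched. Psme1 and Psme2 are shown because they had the largest positive differences of any member between Spink3-/- and Spink3+/+. Each stretch runs from 130 bases before to 20 bases after the start, 5′ to 3′ on the strand of the gene, with the TGACNNNGC match in capitals. The Psmb5 stretch is chr14:54617976-54618125 on the minus strand and that of Psmb6 is chr11:70525227-70525376 on the plus strand. That of Psme1 is chr14:55578364-55578513 on the plus strand and that of Psme2, from 1 of its 2 windows, is chr14:55591082-55591231 on the minus strand.
Psmb5: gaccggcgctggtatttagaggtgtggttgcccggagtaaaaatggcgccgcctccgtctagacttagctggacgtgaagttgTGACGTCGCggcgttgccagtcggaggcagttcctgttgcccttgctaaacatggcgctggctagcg
Psmb6: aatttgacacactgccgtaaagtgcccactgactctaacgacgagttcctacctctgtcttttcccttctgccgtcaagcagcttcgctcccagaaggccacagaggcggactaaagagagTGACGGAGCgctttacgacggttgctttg
Psme1: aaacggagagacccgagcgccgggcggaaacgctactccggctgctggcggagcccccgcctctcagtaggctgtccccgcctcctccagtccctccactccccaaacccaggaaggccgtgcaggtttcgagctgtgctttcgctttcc
Psme2: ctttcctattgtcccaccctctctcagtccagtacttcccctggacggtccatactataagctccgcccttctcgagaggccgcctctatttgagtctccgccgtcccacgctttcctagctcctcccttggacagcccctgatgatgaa
The match of Psmb5 begins 47 bases before the start and that of Psmb6 begins 9 bases before it. Neither TGACNNNGC nor CCAAT occurred in the windows of Psme1 and Psme2, which lie near each other on chromosome 14.

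A level below is the log2 of the processed signal minus the 75th percentile of that array, so 0 is that percentile, and a difference of 1 is a 2-fold difference. The targeted gene fitted the labels in direction: Spink3 had levels of 3.25 and 2.95 in Spink3-/- pancreas and 2.64 and 2.34 in Spink3-/-XKI/+ pancreas, against 9.84 and 10.26 in Spink3+/+ pancreas. Its probe was still well above background on 2 of 2 arrays in both Spink3-/- and Spink3-/-XKI/+. The source of that remaining signal was not tested. Pancreatic tissue was borne out by the levels of its markers, with means of 8.46 to 8.99 over the 8 acinar genes on the 6 arrays. The 8 liver genes had means of -0.19 to 2.13. Being above background did not set the lists apart, since on every array 8 of 8 acinar and 7 of 8 liver genes were. Between 42.4% and 50.8% of the spots of an array were well above background, and arrays correlated at 0.978 to 0.984 within a genotype and at 0.971 to 0.983 between genotypes. The 6 arrays shared 1 slide but lay in 2 rows of it: both Spink3+/+ arrays and Spink3-/- replicate 1 in the first row, the other 3 in the second.

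**Figure D1:**
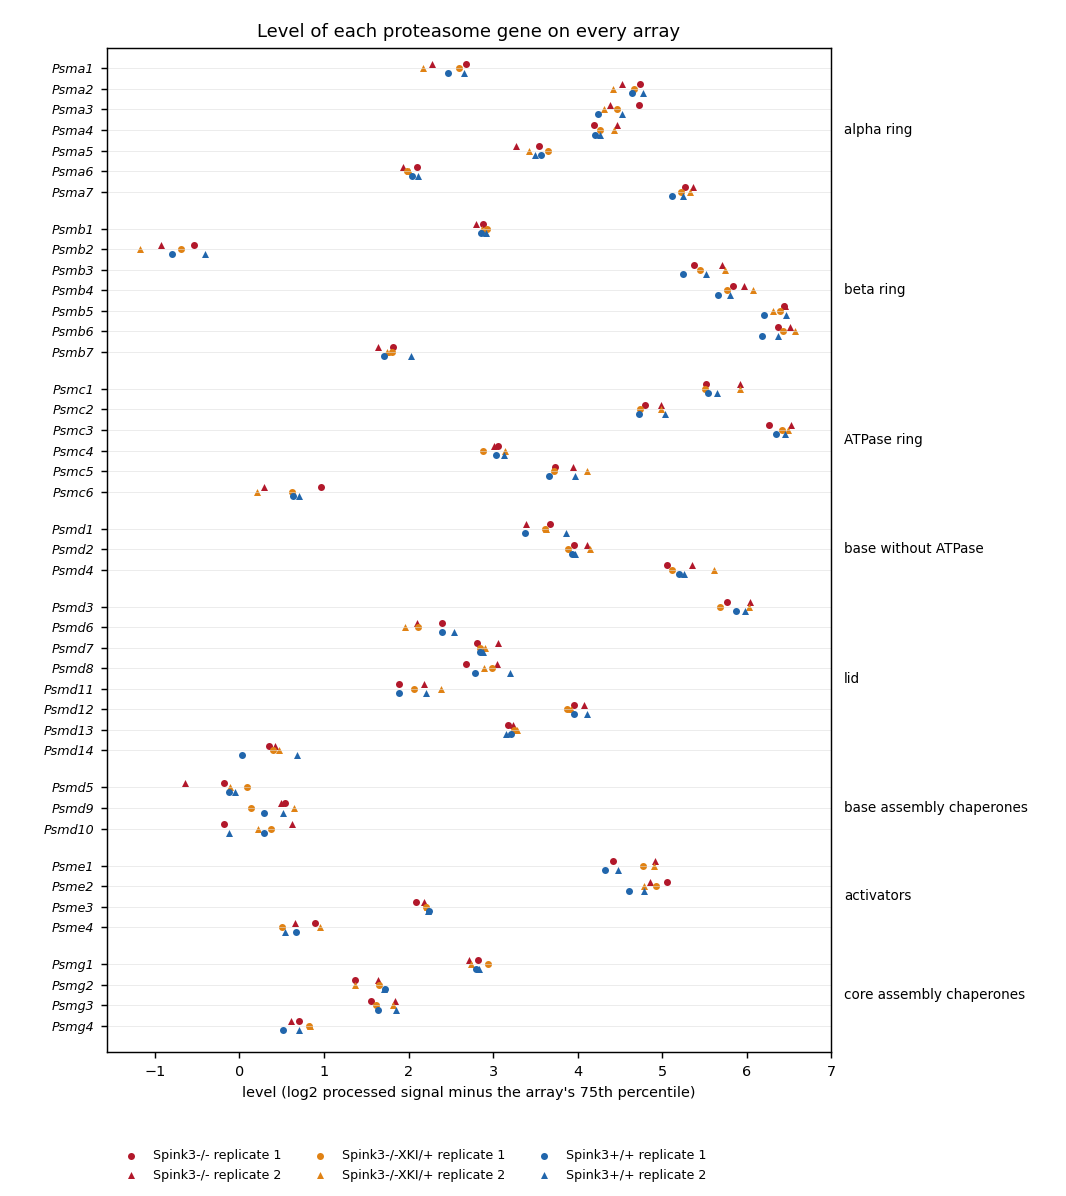
Level (log2 processed signal minus the 75th percentile of the array, horizontal axis) of each of the 42 tested proteasome genes on every array, grouped by role. Red points are Spink3-/-, orange Spink3-/-XKI/+ and blue Spink3+/+, circles replicate 1 and triangles replicate 2. Positions are compared within a gene only, since each gene has its own probe. Psme1, Psmd5 and Psmd6 have the largest differences between genotypes, up to 0.44 in size, and for each of them the points of at least 1 pair of genotypes do not overlap.

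No proteasome gene passed the test between Spink3-/- and Spink3+/+ pancreas. In limma, with Benjamini-Hochberg adjustment over all genes tested, 0 of 42 were called at an adjusted p under 0.05 (0.0353% of all genes were, 0.0212% being higher and 0.0141% lower in Spink3-/-), and 0 of 42 had an unadjusted p under 0.05 (5.06% of all genes did). By the mean, 20 members were higher in Spink3-/- (47.6%, against 49.1% of all genes) and 22 lower. The median difference was -0.01 for the members and -0.01 for all genes. Differences ran from -0.32 for Psmd5 to 0.27 for Psme1, and the smallest adjusted p of a member was 0.988. By the brightest probe, the 95% interval of every member lay within 1 log2 unit of 0, which was so for 76.6% of all genes tested. A 2-fold difference lies outside each of these intervals. It is not excluded by the dimmer probes of Psmd9 and Psmd10, which differed by -0.71 (standard error 0.47) and -0.93 (standard error 0.88). None of the 42 differed by more than 0.5, a size passed by 11.6% of all genes. Among the 9969 genes within the members' range of levels, 6.36% passed it. In bulk tissue, fewer cells of a type and less RNA per cell cannot be told apart.

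Among the 7 alpha ring genes, which form the gate of the core, 3 were higher and 4 lower in Spink3-/- than in Spink3+/+, with a median of -0.05. Psma3 had the largest positive difference among them, with levels of 4.72 and 4.38 in Spink3-/- and 4.24 and 4.52 in Spink3+/+. The arrays of the genotypes overlapped, and the difference was 0.17 (95% interval -0.33 to 0.67, limma adjusted p = 0.990). Psma7 was the alpha gene whose arrays did not overlap, at 5.27 and 5.36 in Spink3-/- and 5.12 and 5.24 in Spink3+/+, a gap smaller than the spread within either genotype.

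Of the 7 beta ring genes 4 were higher and 3 lower, with a median of 0.11. The catalytic subunits did not lean one way. Psmb5, the chymotrypsin-like subunit, had levels of 6.44 and 6.45 in Spink3-/- and of 6.21 and 6.47 in Spink3+/+, a difference of 0.11 (95% interval -0.31 to 0.53). Psmb6, the caspase-like subunit, had levels of 6.37 and 6.50 in Spink3-/- and of 6.18 and 6.37 in Spink3+/+, a difference of 0.17 (95% interval -0.25 to 0.59). For Psmb6 the Spink3-/- arrays reached down to the higher Spink3+/+ array without overlap. Psmb7, the trypsin-like subunit, had levels of 1.82 and 1.63 in Spink3-/- and of 1.71 and 2.03 in Spink3+/+, a difference of -0.14 (95% interval -0.60 to 0.32). Psmb4, which completes the beta ring during assembly, had levels of 5.83 and 5.97 in Spink3-/- and of 5.66 and 5.80 in Spink3+/+, separate by a small margin, with a difference of 0.17 (95% interval -0.28 to 0.63).

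The cap genes lay close to 0. The 6 ATPase genes, Psmc1 to Psmc6, had a median difference of 0.01 between Spink3-/- and Spink3+/+ and ranged from -0.05 to 0.12. The 3 other base genes had a median of -0.03 and the 8 lid genes one of -0.01. Psmd4, which binds ubiquitin chains, had levels of 5.06 and 5.35 in Spink3-/- and of 5.20 and 5.26 in Spink3+/+, with a difference of -0.03. Psmd14, which removes the chains from substrates, had levels of 0.35 and 0.42 in Spink3-/-, inside the wide pair of 0.03 and 0.68 in Spink3+/+. Psmd6, a structural lid subunit, was the lid gene furthest from 0. Its levels were 2.39 and 2.09 in Spink3-/- and 2.39 and 2.54 in Spink3+/+, a difference of -0.22 (95% interval -0.68 to 0.23, limma adjusted p = 0.988). Psmd8, also of the lid, had levels of 2.68 and 3.04 in Spink3-/- and of 2.79 and 3.20 in Spink3+/+, which overlapped, with a difference of -0.13.

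Of the 3 chaperones that assemble the cap base, Psmd5 had the largest difference of any member. Its levels were -0.18 and -0.65 in Spink3-/- and -0.13 and -0.05 in Spink3+/+. The Spink3-/- arrays lay below the others, 1 of them by a small margin, and the difference was -0.32 (95% interval -0.84 to 0.20, limma adjusted p = 0.988). It was -0.56 without Spink3-/- replicate 1 and -0.09 without Spink3-/- replicate 2, so 1 array set most of its size.

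The activators held the largest positive differences. Psme1 and Psme2, which form the ring-shaped activator induced by interferon gamma, had differences of 0.27 each. Psme1 had levels of 4.42 and 4.92 in Spink3-/- and of 4.32 and 4.48 in Spink3+/+, which overlapped (95% interval -0.26 to 0.80). Psme2 had levels of 5.06 and 4.86 in Spink3-/- and of 4.60 and 4.79 in Spink3+/+, which did not overlap (95% interval -0.17 to 0.70), and its other tested probe gave a like difference of 0.29. The limma adjusted p was 0.988 for each. The Psme1 difference was 0.52 without Spink3-/- replicate 1 and 0.02 without Spink3-/- replicate 2. Macrophages also express these genes, and 4 of 5 macrophage markers had a higher mean in Spink3-/-, with mean levels of 2.00 and 1.60 in Spink3-/- and 1.34 and 1.59 in Spink3+/+, with all 5 above background on every array. Their part in the Psme1 and Psme2 values was not tested. Psme3, the nuclear activator, had levels of 2.08 and 2.18 in Spink3-/- and of 2.24 and 2.23 in Spink3+/+, a separation of small size with a difference of -0.10. Psme4, a large nuclear activator, had levels of 0.89 and 0.66 in Spink3-/- and of 0.67 and 0.54 in Spink3+/+, which overlapped narrowly, with a difference of 0.17 (95% interval -0.35 to 0.69).

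The chaperones that assemble the core, Psmg1 to Psmg4, had a median difference of -0.05. Psmg2, which acts as a pair with Psmg1, had levels of 1.37 and 1.64 in Spink3-/- and of 1.72 and 1.71 in Spink3+/+. The arrays did not overlap, and the difference was -0.21 (95% interval -0.67 to 0.25, limma adjusted p = 0.988). The differences of Psmg1, Psmg3 and Psmg4 were -0.05, -0.04 and 0.05. Counting all roles, 4 members (Psma7, Psmb4, Psmb6 and Psme2) were higher on both Spink3-/- arrays than on both Spink3+/+ arrays, where 16.2% of all genes were, and 3 (Psmd5, Psme3 and Psmg2) were lower on both, where 16.6% of all genes were. The slide row as a block leaves Spink3-/- replicate 1 as the array set against Spink3+/+. With this block 3 of 20 members named and tested turned sign, namely Psmd10 (-0.26), Psmd14 (-0.01) and Psmg1 (0.01).

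**Figure D2:**
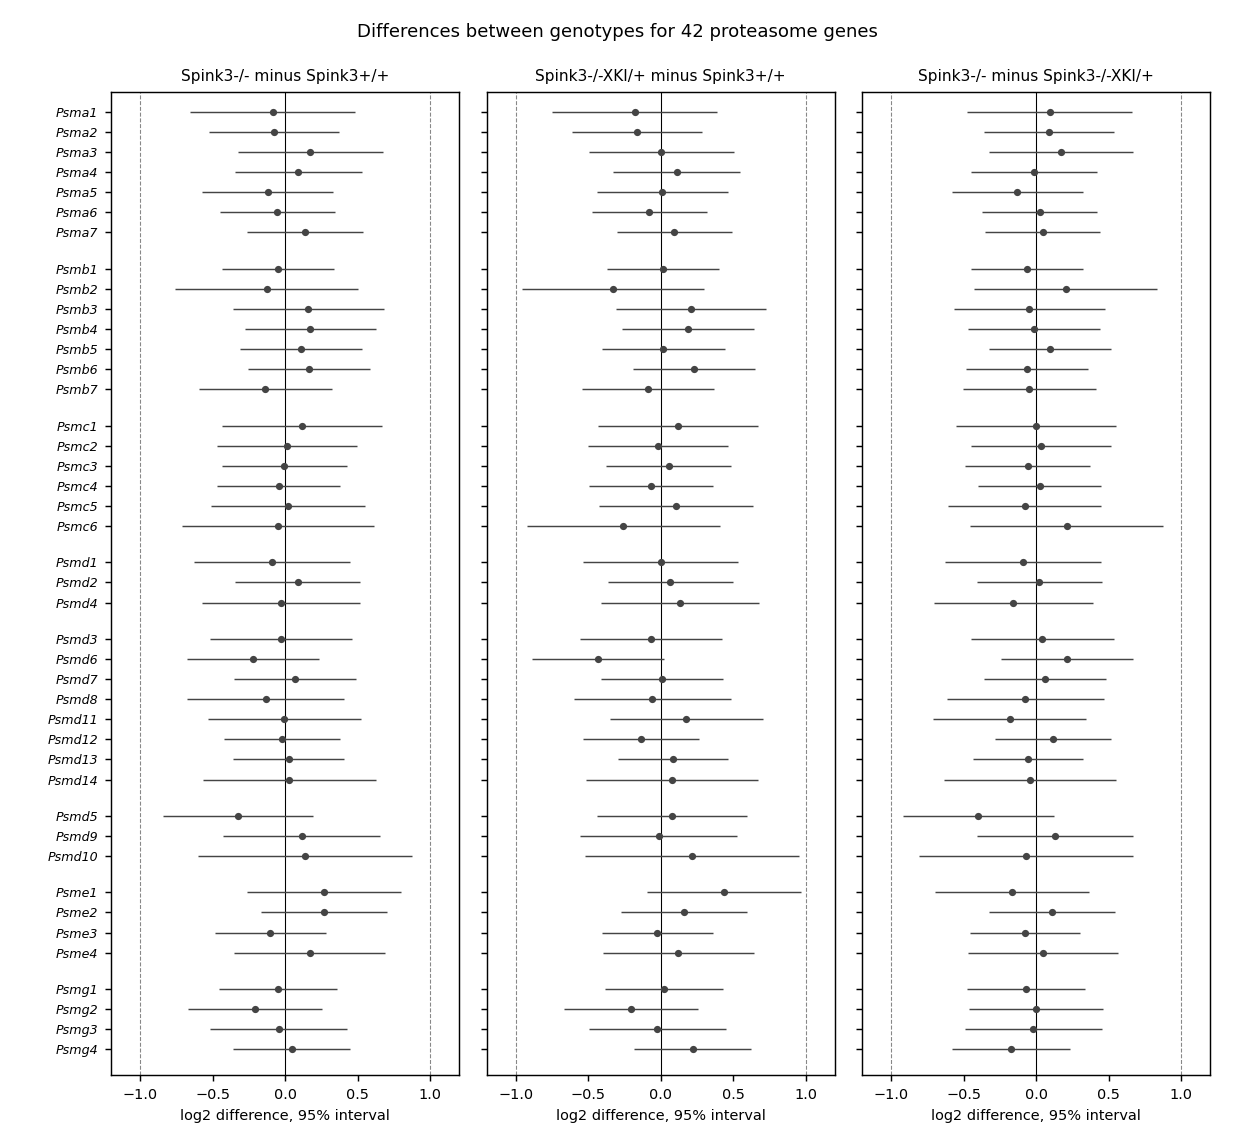
Log2 difference (point) and its 95% interval from limma (line) of each of the 42 tested proteasome genes, for Spink3-/- minus Spink3+/+ (left), Spink3-/-XKI/+ minus Spink3+/+ (middle) and Spink3-/- minus Spink3-/-XKI/+ (right). Dashed lines mark -1 and 1. All intervals include 0 and all stay inside the dashed lines.

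No proteasome gene passed the test between Spink3-/-XKI/+ and Spink3+/+ pancreas either. In limma 0 of 42 were called (0.00706% of all genes were) and 0 of 42 had an unadjusted p under 0.05 (7.57% of all genes did). By the mean, 25 members were higher in Spink3-/-XKI/+ (59.5%, against 56.3% of all genes) and 17 lower. The median difference was 0.02, against 0.04 over all genes. This comparison shares its Spink3+/+ arrays with that of Spink3-/- and Spink3+/+. The values ran from -0.43 for Psmd6 to 0.44 for Psme1, and all 42 intervals lay within 1 log2 unit of 0 (73.6% of all genes). No member differed by more than 0.5 (14.1% of all genes, and 8.95% of those within the members' range of levels). All Spink3-/-XKI/+ arrays lay in the second row of the slide and all Spink3+/+ arrays in the first, so genotype and row are told apart only through the Spink3-/- arrays, which lay in both rows.

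Psmd6 and Psme1 stood furthest from 0. Psmd6 had levels of 2.11 and 1.95 in Spink3-/-XKI/+ and of 2.39 and 2.54 in Spink3+/+, without overlap. Its difference was -0.43 (95% interval -0.89 to 0.02), with a limma adjusted p of 0.683, the smallest of any member here, and it was -0.13 with the slide row as a block. Psme1 had levels of 4.78 and 4.90 in Spink3-/-XKI/+ and of 4.32 and 4.48 in Spink3+/+, also without overlap. Its difference was 0.44 (95% interval -0.09 to 0.97, limma adjusted p = 0.723), and it was -0.06 with the slide row as a block. Psme2, its partner, had levels of 4.93 and 4.78 in Spink3-/-XKI/+, overlapping 4.60 and 4.79 in Spink3+/+, with a difference of 0.16. Macrophage markers had mean levels of 2.34 and 1.74 in Spink3-/-XKI/+ and of 1.34 and 1.59 in Spink3+/+, and their part was not tested.

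Within the core, Psmb6 had levels of 6.43 and 6.57 in Spink3-/-XKI/+ and of 6.18 and 6.37 in Spink3+/+, without overlap, with a difference of 0.23 (95% interval -0.19 to 0.65). Psmb5 had levels of 6.40 and 6.31 in Spink3-/-XKI/+ and of 6.21 and 6.47 in Spink3+/+, a difference of 0.02, and Psmb7 had a difference of -0.09. The catalytic subunits thus gave values on either side of 0, each smaller than its interval. Psmb2, a beta subunit without catalytic activity, had levels of -0.69 and -1.17 in Spink3-/-XKI/+ and of -0.80 and -0.41 in Spink3+/+. These overlapped, with a difference of -0.33 (95% interval -0.96 to 0.30), which was 0.06 with the slide row as a block and -0.09 without Spink3-/-XKI/+ replicate 2. Psmb3, also not catalytic, differed by 0.21 and the alpha subunit Psma1 by -0.18, in each case with overlapping arrays. With the slide row as a block Psmb3 differed by -0.12 and Psma1 by 0.23, both with the sign turned. Psmd10, a base chaperone, differed by 0.21, also with overlap and with a second probe that disagreed, and by -0.58 with the block. In all, 8 of the 19 members named and tested in this comparison turned sign under the block, Psmb7 and Psmd4 among them with 0.10 and -0.16.

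In the cap, the ATPase gene Psmc6 had levels of 0.62 and 0.21 in Spink3-/-XKI/+ and of 0.64 and 0.71 in Spink3+/+. Its arrays did not overlap, yet the pair of Spink3-/-XKI/+ arrays lay further apart than the genotypes, and the difference was -0.26 (95% interval -0.92 to 0.41). It was 0.41 with the slide row as a block and -0.06 without Spink3-/-XKI/+ replicate 2. Psmd4 had levels of 5.12 and 5.61 in Spink3-/-XKI/+ on either side of 5.20 and 5.26 in Spink3+/+, with a difference of 0.13, and Psmd14 differed by 0.08. Among the assembly chaperones, Psmg4 had levels of 0.83 and 0.84 in Spink3-/-XKI/+ and of 0.51 and 0.71 in Spink3+/+, a difference of 0.22 (95% interval -0.18 to 0.63). Psmg2 had levels of 1.65 and 1.37 in Spink3-/-XKI/+ and of 1.72 and 1.71 in Spink3+/+, a difference of -0.20 (95% interval -0.67 to 0.26). Both separated from Spink3+/+, in opposite directions. Psmg1 and Psmg3 differed by 0.02 and -0.02, Psme3 by -0.02 and Psme4 by 0.12. Counting all roles, 4 members (Psmb6, Psmd13, Psme1 and Psmg4) were higher on both Spink3-/-XKI/+ arrays than on both Spink3+/+ arrays, where 26% of all genes were. Another 6 (Psma6, Psmc6, Psmd6, Psmd12, Psme3 and Psmg2) were lower on both, where 16.1% of all genes were.

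**Figure D3:**
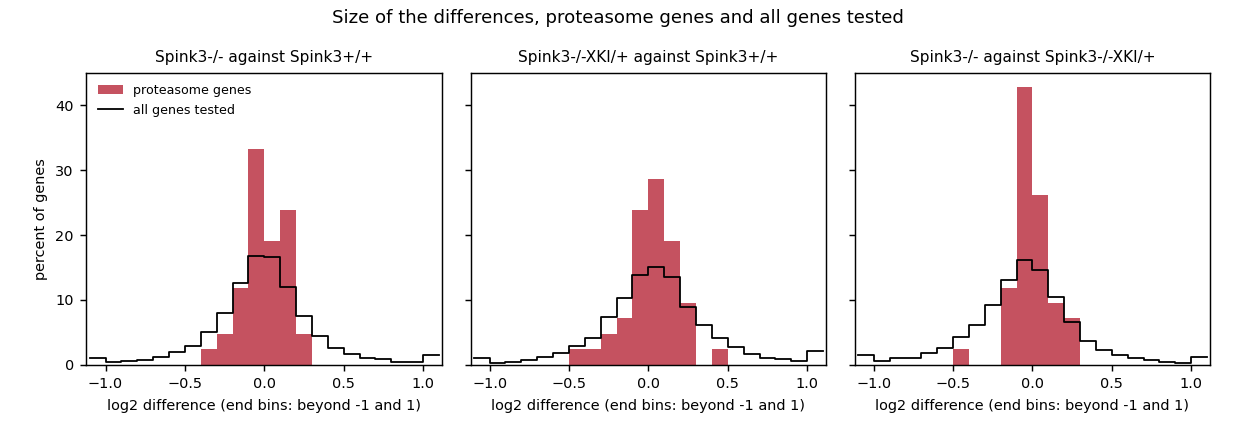
Percent of genes (vertical axis) by log2 difference (horizontal axis, bins of 0.1, end bins holding everything beyond -1 and 1) for the 42 tested proteasome genes (red bars) and all 14167 genes tested (black line) in the 3 comparisons. The proteasome genes crowd around 0 and none reaches 0.5 in size, while the line extends into both end bins. The line is not matched for level: the median level is 0.68 for all genes tested and 3.13 for the proteasome genes.

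Between Spink3-/- and Spink3-/-XKI/+ pancreas, which share the loss of Spink3, limma again called 0 of 42 members (0.00706% of all genes were called), and 0 of 42 had an unadjusted p under 0.05 (7.21% of all genes did). By the mean, 18 members were higher in Spink3-/- (42.9%, against 42.7% of all genes) and 24 lower. The median difference was -0.02, against -0.04 over all genes. The values ran from -0.40 for Psmd5 to 0.21 for Psmd6, and all 42 intervals lay within 1 log2 unit of 0 (74.9% of all genes). No member differed by more than 0.5 (13.6% of all genes, and 8.72% of those within the members' range of levels). This comparison is also the test of whether the 2 differences from Spink3+/+ are unequal, and no member passed it.

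Psmd5 had levels of -0.18 and -0.65 in Spink3-/- and of 0.09 and -0.11 in Spink3-/-XKI/+. Both Spink3-/- arrays lay below both others, and the difference was -0.40 (95% interval -0.92 to 0.12, limma adjusted p = 0.743). It was -0.64 without Spink3-/- replicate 1 and -0.17 without Spink3-/- replicate 2. Psmg4 had levels of 0.71 and 0.61 in Spink3-/- and of 0.83 and 0.84 in Spink3-/-XKI/+, a difference of -0.17 (95% interval -0.58 to 0.23). All 4 core assembly chaperones had a negative difference, the smallest in size being -0.01 for Psmg2, but with the slide row as a block Psmg2 and Psmg3 had 0.13 and 0.12. Psmd6 had levels of 2.39 and 2.09 in Spink3-/- and of 2.11 and 1.95 in Spink3-/-XKI/+, which overlapped narrowly, with a difference of 0.21 (95% interval -0.24 to 0.67). Psmc6 and Psmb2 had differences of 0.21 and 0.20, each with overlapping arrays. Psmd11, a lid subunit that bridges lid and base, differed by -0.18, Psmd4 by -0.16 and Psme1 by -0.17, again with overlap. With the slide row as a block, which leaves Spink3-/- replicate 2 as the array set against Spink3-/-XKI/+, 7 of 20 members named and tested turned sign, Psmc6 to -0.13 and Psme1 to 0.08 among them.

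The catalytic genes differed by 0.09 (Psmb5), -0.06 (Psmb6) and -0.05 (Psmb7). For Psmb5 the arrays did not overlap, with 6.44 and 6.45 in Spink3-/- above 6.40 and 6.31 in Spink3-/-XKI/+, although the step between the nearest arrays was small. Psma3 differed by 0.17 and the base chaperone Psmd9 by 0.13. The other activators differed by 0.11 (Psme2), -0.08 (Psme3) and 0.05 (Psme4), and Psmd14 by -0.05. Counting all roles, 2 members (Psmb5 and Psmd12) were higher on both Spink3-/- arrays than on both Spink3-/-XKI/+ arrays, where 13.1% of all genes were. Another 4 (Psmd5, Psmd13, Psme3 and Psmg4) were lower on both, where 21.4% of all genes were.

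The direction of these counts depended on the scaling. When arrays were scaled on their spike-in controls, the median of all genes moved to 0.11 between Spink3-/- and Spink3+/+ and to 0.09 and 0.02 in the other comparisons. The members moved with it: 35 of 42 were then higher in Spink3-/- than in Spink3+/+, 30 were higher in Spink3-/-XKI/+ than in Spink3+/+, and 30 were higher in Spink3-/- than in Spink3-/-XKI/+. Such scaling shifts all genes of an array alike, so relative to the median of all genes the members' median was unchanged by construction. With the slide row as a block, the members' medians were -0.00, 0.00 and 0.01 and no member was called.

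The spread of the members between arrays of a genotype is described without a test. Their median residual SD was 0.156, against 0.218 over all genes tested and 0.192 over the 9969 genes within the members' range of levels. Level was not matched within this range, since the median level of those genes was 1.45 against 3.13 for the members. Among those genes 85.6%, 82.7% and 83.8% had an interval within 1 log2 unit of 0, against all 42 members each time. The shares are in the order in which the comparisons were described. The median size of the difference between the arrays of a genotype over the members was 0.24 in Spink3-/-, 0.18 in Spink3-/-XKI/+ and 0.15 in Spink3+/+. Over all genes tested it was 0.28, 0.23 and 0.19, so the genotypes ranked alike.

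The spread within genotypes was not the same for all members. Between the Spink3-/- arrays, Psmc6, Psmd5, Psma1 and Psmb2 were lower on replicate 2 than on replicate 1 by 0.67, 0.47, 0.41 and 0.39, while Psmd10, Psme1 and Psmc1 were higher on replicate 2 by 0.80, 0.50 and 0.40. Between the Spink3-/-XKI/+ arrays, Psmc6, Psma1 and Psmb2 were lower on replicate 2 by 0.41, 0.42 and 0.48, and Psmc1 was higher by 0.41. Of the 42 members 32 had the same sign in both genotypes, against 63% of the other genes, and the correlation of these array differences across the 42 members was 0.53, against 0.20 across the 14125 other genes. This correlation is across genes, which share arrays and are not independent, and is given as a description. No such likeness appeared with the Spink3+/+ pair, where the correlation across members was -0.18 with Spink3-/- and 0.03 with Spink3-/-XKI/+. Between the Spink3+/+ arrays 36 of 42 members were higher on replicate 2, against 56.2% of all genes, and Spink3+/+ replicate 1 was the lowest of the 6 arrays for 14 members, against 18.3% of all genes. Spink3+/+ replicate 2 was the highest for 12 members, against 14.4% of all genes.

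**Figure D4:**
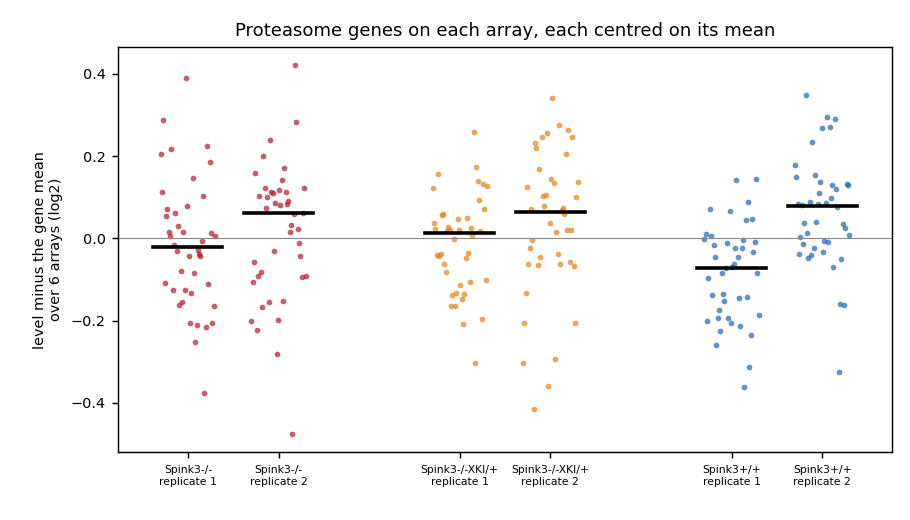
Level of each of the 42 tested proteasome genes minus its mean over the 6 arrays (vertical axis, log2) on every array (horizontal axis); points are genes and bars their medians. The medians lie between -0.07 on Spink3+/+ replicate 1 and 0.08 on Spink3+/+ replicate 2, so the extremes belong to the same genotype.

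For 11 members a second probe was tested. Among the 9 whose second probe was above background on all 6 arrays, the differences given by the probes of a gene were at most 0.20 apart in any of the 3 comparisons, which is more than the size of most member differences. The sign was opposite for 3 of the 9 in Spink3-/- against Spink3+/+, for 6 in Spink3-/-XKI/+ against Spink3+/+ and for 2 in Spink3-/- against Spink3-/-XKI/+. Psma4, an alpha subunit, had 0.09 by its brighter probe and -0.11 by the other in Spink3-/- against Spink3+/+, and Psme4 had 0.12 and -0.03 in Spink3-/-XKI/+ against Spink3+/+. The probes of the 2 other genes lay further apart. For Psmd10, which binds the ATPase Psmc4 during base assembly, the brighter probe had levels of -0.18 and 0.62 in Spink3-/- and of 0.29 and -0.12 in Spink3+/+, a difference of 0.14. The dimmer probe had levels of -2.06 and -2.82 in Spink3-/- and of -0.05 and -2.97 in Spink3+/+, a difference of -0.93 that came from Spink3+/+ replicate 1 alone, and it was above background on 4 arrays. For Psmd9, the brighter probe differed by 0.11 and the dimmer probe, above background on 5 arrays, by -0.71. The second Psmd9 probe had levels of -1.82 and -2.55 in Spink3-/- and of -0.80 and -2.15 in Spink3+/+, again with Spink3+/+ replicate 1 apart. For Psmd9 and Psmd10 the size depended on the probe taken, and for the genes with opposite signs the direction did.

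**Figure D5:**
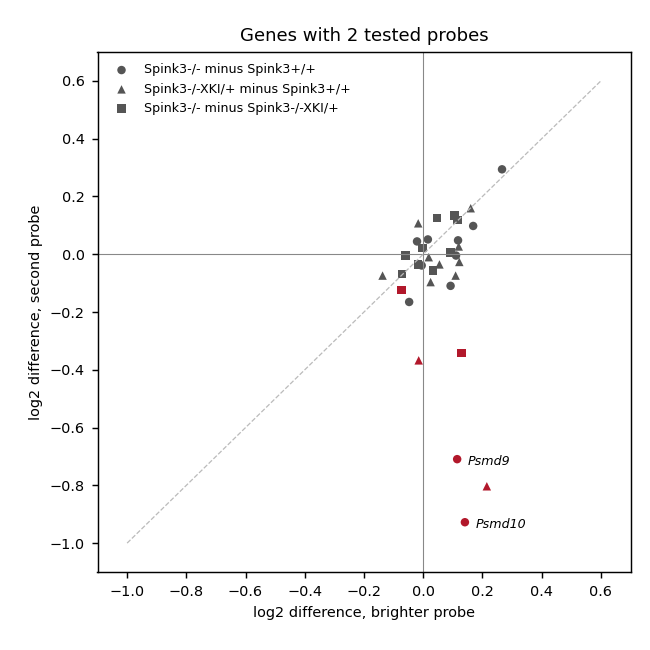
Log2 difference by the second tested probe (vertical axis) against that by the brighter probe (horizontal axis) for the 11 members with 2 tested probes. Circles are Spink3-/- minus Spink3+/+, triangles Spink3-/-XKI/+ minus Spink3+/+ and squares Spink3-/- minus Spink3-/-XKI/+, and red symbols are second probes below background on at least 1 array. The grey symbols lie within 0.20 of the dashed line of equal values, often on the other side of 0, while the red symbols of Psmd9 and Psmd10 reach -0.71 and -0.93.

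The 3 members that were not tested were dim. Psmb11, the catalytic subunit of the thymus, was not well above background on any array. Psma8, an alpha subunit of the testis, was above background on Spink3+/+ replicate 2 alone, where its level was -0.94 against -4.78 to -3.56 on the other arrays. Psmf1, an inhibitor of the core, was above background on 2 arrays, with levels of -2.51 and -2.21 in Spink3-/-, -2.12 and -2.69 in Spink3-/-XKI/+ and -2.00 and -2.22 in Spink3+/+. Its arrays overlapped and no fold is given.

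Of the immune forms, which replace the catalytic subunits in interferon-exposed and blood-derived cells, Psmb8 had levels of 0.68 and 0.29 in Spink3-/-, 0.64 and 0.42 in Spink3-/-XKI/+ and 0.10 and 0.45 in Spink3+/+. Psmb9 had levels of 0.16 and -0.18 in Spink3-/-, 0.18 and -0.74 in Spink3-/-XKI/+ and 0.41 and -0.23 in Spink3+/+. Arrays of the 3 genotypes overlapped for both genes, and neither was called by limma in any comparison (smallest adjusted p 0.830). Psmb10 was not tested because its spot on Spink3-/- replicate 1 carried the scanner's outlier mark. Its level was 7.56 on the other Spink3-/- array, 7.13 and 7.23 in Spink3-/-XKI/+ and 7.27 and 7.28 in Spink3+/+.

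Of 29 other genes that make, carry or edit ubiquitin, assemble the proteasome or control its genes, 26 were tested and 0 were called by limma in any comparison, with 1 unadjusted p under 0.05 in Spink3-/-XKI/+ against Spink3+/+ and 0 in each of the others. In Spink3-/- against Spink3+/+, 17 were higher and 9 lower with a median of 0.04. The splits were 14 higher and 12 lower in Spink3-/-XKI/+ against Spink3+/+ and likewise in Spink3-/- against Spink3-/-XKI/+, with medians of 0.03 each. Nfe2l1, the activator of proteasome genes, had levels of -0.17 and 0.20 in Spink3-/-, -0.13 and 0.35 in Spink3-/-XKI/+ and -0.03 and -0.09 in Spink3+/+. Its Spink3+/+ levels lay between those of the other arrays, with a difference of 0.08 between Spink3-/- and Spink3+/+ (95% interval -0.49 to 0.64). Uba6, a ubiquitin-activating enzyme, was well above background on 1 of 2 arrays in Spink3-/-, 2 of 2 in Spink3-/-XKI/+ and 1 of 2 in Spink3+/+, with levels of -1.65 and -2.02 in Spink3-/-, -1.78 and -1.65 in Spink3-/-XKI/+ and -2.73 and -2.07 in Spink3+/+. The differences from Spink3+/+, which rest in part on signals not above background, were 0.57 in Spink3-/- and 0.68 in Spink3-/-XKI/+, with limma adjusted p values of 0.988 and 0.649. Ubqln4, which shuttles substrates to the proteasome, had levels of -1.42 and 1.41 in Spink3-/- and of -0.91 and -1.05 in Spink3+/+, so its difference of 0.97 came from Spink3-/- replicate 2. Txnl1, bound to the cap, had levels of -0.33 and -0.51 in Spink3-/- and of -0.98 and -0.56 in Spink3+/+, without overlap, with a difference of 0.36. Between Spink3-/-XKI/+ and Spink3+/+ the largest differences after Uba6 were -0.41 for Zfand5 and 0.36 for Ubqln4. Zfand2a, a zinc finger protein linked to the proteasome, had levels of 0.86 and 0.71 in Spink3-/- and of 0.45 and 0.13 in Spink3-/-XKI/+, without overlap. Its difference of 0.49 (95% interval -0.00 to 0.99, limma adjusted p = 0.692) followed that of 0.61 for Ubqln4 in this comparison, and Ufd1 came next with -0.29.

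Calls were rare among all genes tested, at 0.0353% between Spink3-/- and Spink3+/+ and 0.00706% in each other comparison. Their absence among the members therefore does not set the members apart. By size, some markers of other cells shifted more than any member did by its brightest probe. The 8 liver markers all had a higher mean in Spink3-/- than in Spink3+/+, with a median difference of 1.74 and mean levels of 2.13 and 1.84 in Spink3-/-, -0.19 and 1.25 in Spink3-/-XKI/+ and 0.29 and 0.52 in Spink3+/+. The 3 erythroid markers tested had median differences from Spink3+/+ of -0.58 in Spink3-/- and -0.99 in Spink3-/-XKI/+. None of these markers was called by limma. The 8 acinar markers had mean levels of 8.46 and 8.71 in Spink3-/-, 8.99 and 8.71 in Spink3-/-XKI/+ and 8.84 and 8.92 in Spink3+/+. Their median differences from Spink3+/+ were -0.14 in Spink3-/- and -0.09 in Spink3-/-XKI/+, and none was called. The means lean on Pnlip, the dimmest of them, which differed from Spink3+/+ by -1.41 in Spink3-/- and 1.09 in Spink3-/-XKI/+. What part such differences in the cells sampled had in the values of the proteasome genes was not tested.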

How the data were processed

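The arrays measured total RNA of whole pancreas from 3 genotypes with 2 arrays each, grouped by the genotype in the labels. The deposited intensity values are the authors' processed signals from Agilent Feature Extraction 10.7.3.1 (per the submitters' processing notes), subtracted for background and spatially detrended on a linear scale per the file headers, with a surrogate for dim spots and no scaling between arrays. The values deposited for the whole series were identical intensities. Flags for background, saturation and outliers are scored 0 or 1 per spot, per the file headers. Each array held 62976 spots, 59305 of them not controls, and 6 arrays limit the precision.

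From these values log2 was taken and the 75th percentile of each array subtracted. Spots of a probe were averaged and outlier spots left out. A probe was kept when both arrays of some genotype had it well above background (24819 probes, 44.6%), and the brightest stood for a gene. Names came from a RefSeq table (26756 probes by accession, 3824 by symbol, 639 by an older symbol, 2045 by the name in the file, 22417 without a name). All 3 comparisons came from limma 3.58.1 under R 4.3.3 (a linear model on all 6 arrays with empirical Bayes moderation, 3 residual degrees of freedom before moderation, two-sided), with Benjamini-Hochberg adjustment over 14167 genes and a threshold of 0.05. The fitting code was tested on simulated data. Slide and scan date were common to all arrays, and the slide row was tried as a block.

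Members and lists were chosen with earlier results of these data known, so no list was tested. Named in each comparison were the 5 members furthest from 0 in each direction, the catalytic subunits, Psmd4, Psmd14, the activators, Psmf1, the core chaperones, members whose probes disagreed and members not tested. From the related genes the 3 with the largest differences were named, and Nfe2l1, Psma7 and members without overlap were named after their values were seen. Alternatives changed the background correction (normexp, offset 50), the scaling, the filter, the probes of a gene, the samples in the fit, blocks and the arrays left out. Plots were drawn with matplotlib 3.10.9. Marker lists covered acinar, endocrine, duct, liver, macrophage, neutrophil, erythroid, endothelial, lymphocyte and striated muscle cells.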

Additional observations from a re-analysis of the deposited data

How the results depend on the processing

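Under each of the 17 alternatives, 0 of the 42 members were called in all 3 comparisons, and the smallest adjusted p of a member was 0.405 (limma, without Spink3-/- replicate 1). The largest difference of a member was 0.635 in size, for Psmd5 between Spink3-/- and Spink3-/-XKI/+ with the slide row as a block and likewise without Spink3-/- replicate 1. The members' median between Spink3-/- and Spink3+/+ was -0.0421 after quantile normalization and 0.1083 with spike-in scaling, and between Spink3-/- and Spink3-/-XKI/+ it was 0.0487 with spike-in scaling. The spike-in values move by construction with the median of all genes; for the quantile value the cause was not tested. Leaving out each array in turn gave medians from -0.0792 to 0.0734 for Spink3-/- against Spink3+/+, from -0.0141 to 0.0902 for Spink3-/-XKI/+ against Spink3+/+ and from -0.0799 to 0.0186 for Spink3-/- against Spink3-/-XKI/+. Normexp, quantile normalization, the slide row, a fit of the compared genotypes and the loss of Spink3-/- replicate 1 gave 1 or 2 members with an unadjusted p under 0.05, none adjusted.

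With the replicate number as a block no member was called. This block is balanced over the genotypes, so it leaves every difference as it was and can change only the spread. The medians were therefore again -0.0056, 0.0176 and -0.0165. The array differences of the genotypes correlated at 0.199, -0.055 and 0.031, so the numbers were not taken to pair the samples; over all genes the block gave 1, 1 and 0 calls against 5, 1 and 1 without it. Calls over all genes were unstable: between Spink3-/- and Spink3+/+ they ran from 1 (normexp, no filter, a filter on all 6 arrays or the slide row) to 11 (only the genotypes compared), and leaving out an array of either genotype, where the spread of the array left alone was borrowed from the remaining groups, gave from 139 to 290. Of 1003 recomputed differences of named members, 921 kept their direction and 82 did not. Many of the 921 could not turn, since several alternatives leave a difference as it was. These were the deposited values, the replicate block, both filters, the fit of the compared genotypes and the loss of an array outside the comparison. Leaving out single arrays gave 41 of the 82 (11 without Spink3-/- replicate 1), the slide row as a block 18 and spike-in scaling 11. Those counts overlap: the block repeats the loss of Spink3-/- replicate 2 against Spink3+/+ and of replicate 1 against Spink3-/-XKI/+. With 2 arrays a genotype, intervals of about 0.46 on either side limit what can be seen.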

Other observations

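Among marker lists not described above, 4 of the 5 neutrophil genes had a lower mean in Spink3-/- than in Spink3+/+, with a median difference of -0.73, with mean levels of 2.38 and 2.98 in Spink3-/- and 3.08 and 3.52 in Spink3+/+. In Spink3-/-XKI/+ the median was -0.50, with mean levels of 2.70 and 2.60. The 5 endocrine genes had median differences from Spink3+/+ of 0.04 in Spink3-/- and 0.19 in Spink3-/-XKI/+, and the 5 duct genes of -0.00 and 0.09. The 4 endothelial genes tested had medians of -0.25 in Spink3-/- and -0.42 in Spink3-/-XKI/+, the 3 lymphocyte genes tested 0.34 and 0.39, and the 2 striated muscle genes tested 0.45 and 1.22. No gene of these lists was called by limma.

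Pomp, which matures the core and is not named like the subunits, had levels of 3.80 and 3.84 in Spink3-/-, 3.72 and 3.68 in Spink3-/-XKI/+ and 3.53 and 3.63 in Spink3+/+. The 3 genotypes did not overlap, and the difference between Spink3-/- and Spink3+/+ was 0.24 (95% interval -0.14 to 0.63, limma adjusted p = 0.988). Pomp was singled out after its values were seen.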
